A study of Mus musculus with 6 samples.

Results

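Dppa2, Dppa3, Dppa4, Dppa5a, Utf1, L1td1, Fbxo15, Sall4, Tcl1 and Triml2 are genes transcribed in mouse embryonic stem cells (ESCs), cultured pluripotent cells derived from the early embryo. They were taken by gene symbol from a deposited table of 17912 genes, and all 10 were found there. The table covers 6 poly(A) RNA libraries from cells labelled as ESCs. The labels give 3 libraries as wild-type controls (replicates 1, 2 and 3). They give the other 3 as knockdown clones carrying shEXOSC2, a short hairpin RNA against Exosc2 (clones 5, 6 and 7). EXOSC2 belongs to the RNA exosome, which trims and degrades RNA from its 3′ end. By its title the series concerns EXOSC2 in aging and cancer, and the stated design sets ESCs against their knockdown derivatives. The ESC line, the culture medium, the time after knockdown and whether the controls carried a hairpin are not in the labels. Each clone library is a single clone, and separate cultures are not stated, so the spread behind each p-value is that of these libraries alone and may be technical.

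Several of the 10 genes carry the name developmental pluripotency associated (Dppa), given to genes expressed together with the pluripotency factor Oct4 (Pou5f1). DPPA2 and DPPA4 are small chromatin proteins that bind DNA as a heterodimer and keep CpG-rich promoters poised, and DPPA3 (also called Stella) protects the maternal genome from loss of methylation in the zygote. SALL4 is a zinc-finger transcription factor, UTF1 a chromatin-associated protein, L1TD1 an RNA-binding protein derived from a LINE-1 transposon, and FBXO15 an F-box protein used as a reporter in early reprogramming experiments. TCL1 is a coactivator of the AKT kinases. These genes are textbook markers of the naive or early embryonic state, and most are silent in differentiated cells.

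Recovered whole reads per library ranged from 21107761 to 26494985. Exosc2 measured 2457, 2473 and 1954 scaled counts in controls 1, 2 and 3 and 1138, 997 and 981 in clones 5, 6 and 7. The groups did not overlap (exact two-sided permutation test, p = 0.1, the smallest that 3 against 3 libraries allow). The ESC label was checked with 10 ESC markers. All 10 were present in the controls, and in the clones 9 of 10 were lower, 5 of them with fewer than 10 reads over the 3 clones. Nanog had 2 reads, Esrrb 7, Tdgf1 6, Lin28a 3 and Zfp42 none, so these defining markers were at or near 0 in libraries labelled as ESCs. Pou5f1 went the other way, from 21045 ± 4721 to 91114 ± 2227 scaled counts (mean ± SD, n = 3 per group, as throughout).

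All 10 genes were lower in the clones. A gene was called changed at an adjusted p under 0.05 in limma, a linear model with moderated variances, fitted to 15179 genes with a mean of at least 10 scaled counts. All 10 passed that filter, and the 4 genes without a clone read did so on their control levels alone. Of the 10, 10 were called lower and 0 higher. Of all genes tested, 38.3% were called lower and 35.2% higher. The 3 clone values lay below the 3 control values for all 10 genes, as they did for 40.6% of genes tested. With so many genes called, the count of 10 is read beside the size of the change. The median log2 fold change of the 10 genes was -8.12, against -0.07 over all genes tested. A drop of at least 10-fold was measured for 9 of the 10, and for 9.39% of genes tested. Of the 7409 tested genes with a control mean of at least 500 scaled counts, 4.43% dropped that far.

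**Figure D1:**
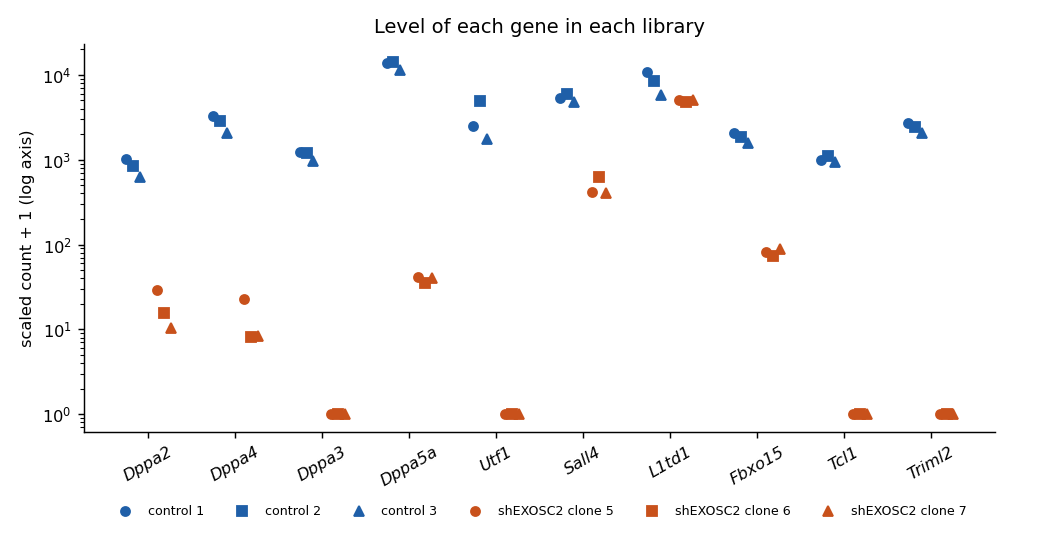
Scaled count plus 1 (log axis) of each gene in the 3 control libraries (blue) and the 3 shEXOSC2 clones (orange), 1 point per library. Points at the foot of the axis are libraries with no read. L1td1 is the gene whose clone values come nearest to the controls.

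The genes differed in what was left in the clones. L1td1 kept 59.8% of its control mean. Sall4, Fbxo15, Dppa2, Dppa4 and Dppa5a kept between 0.289% and 8.88%, and each still had reads in every clone. No clone had a read of Dppa3, Utf1, Tcl1 or Triml2, which was also the case for 331 of the genes tested (2.18%). The limits that 3 reads per library set were 0.0965% of the control mean for Utf1, 0.123% for Triml2 and 0.260% for Dppa3. These lie below the 0.289% measured for Dppa5a, whose own counting error, on 117 reads, is left out. The limit for Tcl1, 0.290%, does not. Each limit is a floor per library that does not pool the 3 clones, so the order of Tcl1 and Dppa5a was not tested. In bulk RNA, fewer cells that express a gene and less RNA per cell cannot be told apart.

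**Figure D2:**
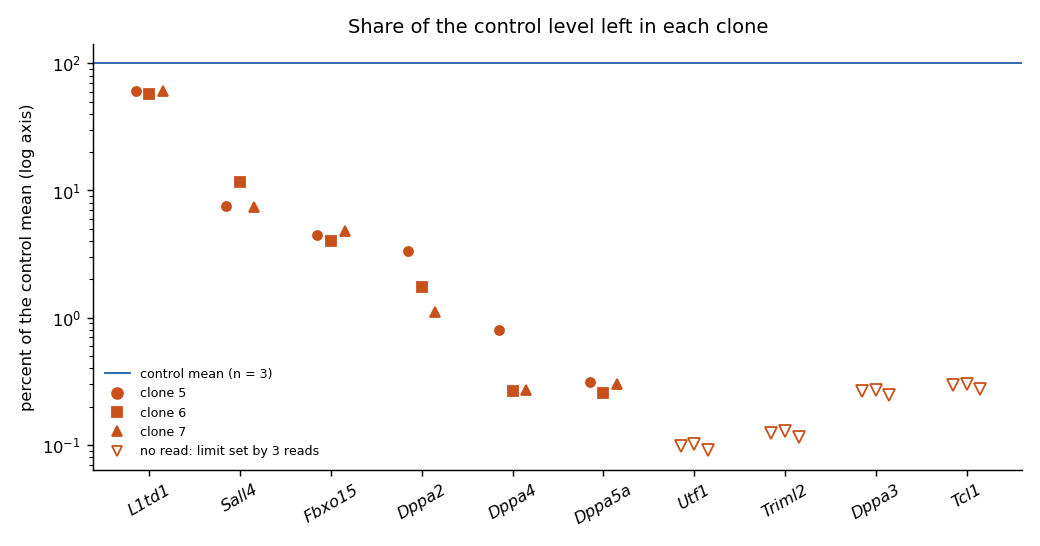
Level of each gene in each clone as a percent of its control mean (log axis, blue line at 100 percent). Filled points are measured values, and open triangles are the upper limits set by 3 reads where a clone had no read. The genes run from L1td1 on the left, at 59.8% over the 3 clones, to the 4 genes without reads on the right.

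Dppa2 and Dppa4 lie side by side on chromosome 16, 9.67 kb apart and on the same strand. Dppa4 (ENSMUSG00000058550.14, positions 48283733 to 48294237 in GRCm38) measured 3304, 2833 and 2073 scaled counts in controls 1, 2 and 3. It measured 21.9, 7.19 and 7.38 in clones 5, 6 and 7, where it had 37 reads in all. The clones kept 0.444% of the control mean, and the log2 fold change was -7.85 ± 0.40 (SE, adjusted p = 4e-07 in limma). Clone 5 was the highest clone for both genes of the pair. Dppa2 (ENSMUSG00000072419.4, positions 48303908 to 48319723) measured 1019.9, 852 and 624 in the controls. In clones 5, 6 and 7 it measured 27.9, 14.4 and 9.23, from 52 reads. The clones kept 2.06%, with a log2 fold change of -5.62 ± 0.38 (adjusted p = 2e-06 in limma).

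The heterodimer partners did not drop by the same factor. The difference between Dppa2 and Dppa4 in log2(scaled count + 1) was -1.72 ± 0.02 in the controls and 0.51 ± 0.35 in the clones. It was thus negative in 3 of 3 controls and positive in 3 of 3 clones, and the group means differed by 2.23 (exact two-sided permutation test, p = 0.1, the smallest of 20 arrangements). Per kb of exon the controls held 1647 ± 374 scaled counts of Dppa4 and 340.0 ± 81.3 of Dppa2. In the clones the levels per kb were 7.31 ± 5.07 and 7.01 ± 3.93, each resting on the low read numbers given above.

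Dppa3 and Dppa5a share the Dppa name with Dppa2 and Dppa4 but lie on other chromosomes. Dppa3 (ENSMUSG00000046323.8, chromosome 6, positions 122626410 to 122630272, plus strand) measured 1237, 1197 and 964 scaled counts in the controls and 0 in every clone. It was at least 385-fold lower against a floor of 3 reads per library. That floor is 0.260% of the control mean, a bound set for each library and not pooled over the 3 clones. Dppa5a encodes a KH-domain RNA-binding protein. Dppa5a (ENSMUSG00000060461.5, chromosome 9, positions 78367052 to 78368177, minus strand) measured 13867, 14342 and 11370 in the controls and 40.8, 33.9 and 39.7 in the clones. The clones agreed closely with each other, and the 117 reads left there were 0.289% of the control mean (log2 fold change -8.39 ± 0.14, adjusted p = 6.4e-09 in limma). Dppa5a has near-identical copies elsewhere in the genome, so how reads were shared among them is uncertain.

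Sall4 and Utf1 are nuclear regulators. Sall4 (ENSMUSG00000027547.17, chromosome 2, positions 168748332 to 168767943, minus strand) measured 5384, 5932 and 4831 scaled counts in the controls and 409.9, 625 and 399 in the clones. Clone 6 was the highest, and 1453 reads remained over the 3 clones. The log2 fold change was -3.52 ± 0.18 (adjusted p = 4.4e-07 in limma), a mean 11.3-fold lower. Utf1 (ENSMUSG00000047751.9, chromosome 7, positions 139943789 to 139945112, plus strand) measured 2471, 4908 and 1777 in the controls and 0 in the clones. Control 2 was far above the other controls, and the coefficient of variation of 53.9% was the largest among the 10 genes. Utf1 was at least 1036-fold lower against the floor of 3 reads.

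Fbxo15 encodes the substrate-binding part of an SCF ubiquitin ligase. Fbxo15 (ENSMUSG00000034391.10, chromosome 18, positions 84934782 to 84981473, plus strand) measured 2082, 1854 and 1563 scaled counts in the controls and 81.6, 72.9 and 87.6 in the clones. The clones kept 4.40% (log2 fold change -4.48 ± 0.16, adjusted p = 8.6e-08 in limma). Its interval overlaps Timm21, which was not called (464 ± 52.4 and 418 ± 64.8 scaled counts), and reads in the overlap cannot be assigned because strand use in counting is not stated. Tcl1 (ENSMUSG00000041359.14, chromosome 12, positions 105216750 to 105222793, minus strand) measured 1002, 1105 and 940.1 in the controls and 0 in the clones, at least 345-fold lower. Its controls were the closest together of the 10 genes, with a coefficient of variation of 8.20%.

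Triml2 belongs to the tripartite-motif-like proteins. Triml2 (ENSMUSG00000091490.2, chromosome 8, positions 43180541 to 43193881, plus strand) measured 2736, 2423 and 2053 scaled counts in the controls and 0 in the clones, at least 816-fold lower.

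L1td1 stood apart from the other 9. L1td1 (ENSMUSG00000087166.9, chromosome 4, positions 98726734 to 98738480, plus strand) measured 10905, 8466 and 5826 scaled counts in controls 1, 2 and 3 and 5107, 4849 and 5114 in clones 5, 6 and 7. The groups did not overlap, but control 3 was only 1.14 times the highest clone. The log2 fold change was -0.70 ± 0.20 (95% interval -1.15 to -0.24, adjusted p = 0.0119 in limma), and 31.9% of tested genes had a lower one. The call was kept without any single library, with log2 fold changes from -0.94 without control 3 to -0.48 without control 1. It ended when the median change of each chromosome was subtracted. The median over chromosome 4 was -0.29, and L1td1 was then at -0.41. Per kb of exon the clones still held 1583 ± 47.5 scaled counts of L1td1, above 95.5% of genes tested.

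Levels can be compared between genes per kb of exon. In the controls Dppa5a was highest, at 21313 ± 2579 scaled counts per kb, with no overlap with the next gene. L1td1 (2646 ± 800.2), Utf1 (2487 ± 1340), Dppa4 (1647 ± 374) and Dppa3 (1270 ± 165) followed, and each overlapped its neighbour in this order. Sall4 (972 ± 99.4) stood below Dppa3 and above Triml2 without overlap. Triml2 (651 ± 92.6), Tcl1 (550.5 ± 45.1) and Fbxo15 (546 ± 77.5) overlapped their neighbours, and Dppa2 (340.0 ± 81.3) was lowest, apart from Fbxo15. In the clones the order per kb was L1td1, Sall4 (86.3 ± 23.0), Dppa5a (61.6 ± 5.97) and Fbxo15 (24.0 ± 2.20), with Dppa4 and Dppa2 below. Dppa4 (7.31 ± 5.07) and Dppa2 (7.01 ± 3.93) overlapped there, so their order is not settled.

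The controls differed among themselves in the same direction for every gene. Control 3 was the lowest control for all 10 genes, against 34.4% of tested genes and 40.9% of the genes called lower. On the log2 scale, control 3 lay below the mean of controls 1 and 2 by a median of 0.33 over the 10 genes (range of the difference -0.97 for Utf1 to -0.16 for Tcl1), while the median over all genes tested was 0.03 above it. The highest control was replicate 1 for 6 genes and replicate 2 for 4. All 10 genes were still called lower without control 3.

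**Figure D3:**
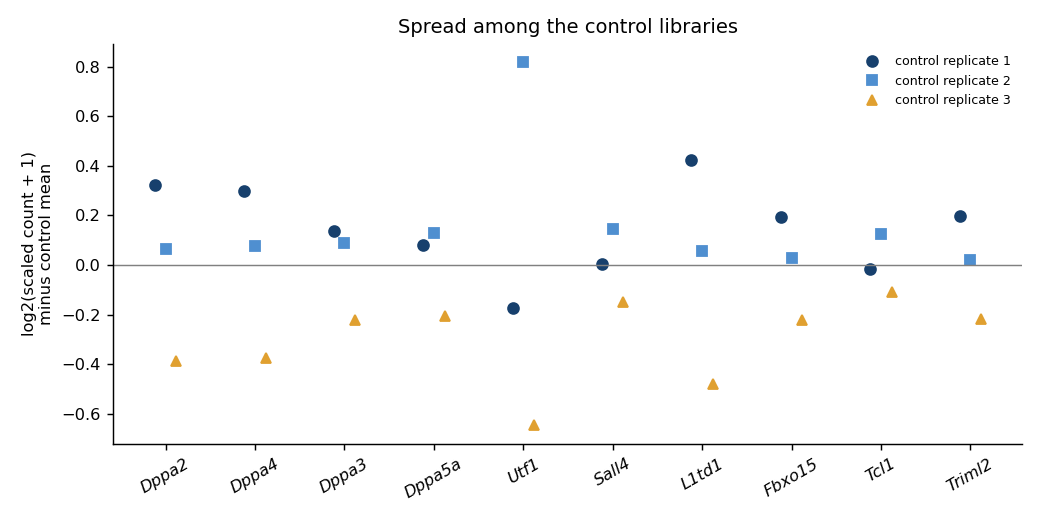
Deviation of each control library from the control mean, in log2(scaled count + 1), for each gene. Control replicate 3 (yellow triangles) is the lowest of the 3 controls for all 10 genes, and Utf1 has the widest spread.

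The 4 lists of markers of other cell types did not all move with that library. Summed over 11 surface epithelium markers, controls 1, 2 and 3 held 13314, 16530 and 23510 scaled counts, and 6 of the 11 were highest in control 3. Summed over 10 trophoblast markers they held 4153, 4813 and 5791, with 7 of 10 highest in control 3. Plac1, a placental gene, measured 6.63, 3.24 and 274 in controls 1, 2 and 3, and Hand1 measured 71.0, 100.4 and 476. Krt7 is on both lists. The 10 primitive endoderm markers summed to 968, 931 and 1341, with 4 highest in control 3. The 12 fibroblast and feeder cell markers went the other way, with sums of 8161, 8629 and 7038 and 4 highest in control 3. Within the ESC marker list the sums were 115772, 118389 and 113149, and 5 of 10 were highest in control 3. The part of these markers in the lower values of control 3 was not tested.

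The same lists were counted between the clones and the controls, beside the 38.3% of all tested genes called lower and the 35.2% called higher. Of 11 tested fibroblast and feeder cell markers 9 rose and 2 fell, and the 12 listed summed to between 7038 and 8629 scaled counts in the controls and between 21971 and 37503 in the clones. Lum measured 2.29 ± 1.38 and 4.56 ± 2.25, and Dcn measured 8.83 ± 5.49 and 28.0 ± 3.803. Of 11 tested epithelial markers 6 rose and 4 fell, with sums from 38730 to 43777 in the clones. The keratin gene Krt6a had no read in the controls and 3657 ± 636 scaled counts in the clones. The epithelial transcription factor Ehf went from 1.69 ± 0.61 to 16997 ± 809.7. The 4 that fell were the adhesion gene Epcam (log2 fold change -2.57), the keratin gene Krt18 (-2.99) and the epithelial transcription factor genes Elf3 (-3.04) and Grhl2 (-5.35). Trophoblast markers fell for 6 of 8 tested and rose for 1, with sums from 1234 to 1468 in the clones. Of 6 tested primitive endoderm markers 3 fell and 2 rose, with sums from 931 to 1341 in the controls and 1878 to 2347 in the clones. The part of other cell types in the drop of the 10 genes was not tested.

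Promoter sequence was given for 4 of the 10 genes in RefSeq (GRCm38.p6), and these are shown because 3 of the 4 lost all reads while L1td1 did not. The window searched is the 250 bases before the RefSeq start, on the strand of the gene, written 5′ to 3′. The stretch printed ends where the first annotated exon begins or, for Triml2, at the end of the window, shortly before that exon. Capitals mark matches on either strand to any of 3 motifs. The GC box was searched as GGGCGG, and 2 of those in Utf1 share a base. The CCAAT box was searched by the letters of its name. The KLF-type motif was searched as CCACCC.
Utf1, chr7:139943606-139943788, plus strand: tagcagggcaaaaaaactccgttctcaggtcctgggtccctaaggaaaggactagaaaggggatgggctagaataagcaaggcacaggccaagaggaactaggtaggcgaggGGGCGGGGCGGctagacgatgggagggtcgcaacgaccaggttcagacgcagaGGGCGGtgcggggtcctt
Triml2, chr8:43180286-43180535, plus strand: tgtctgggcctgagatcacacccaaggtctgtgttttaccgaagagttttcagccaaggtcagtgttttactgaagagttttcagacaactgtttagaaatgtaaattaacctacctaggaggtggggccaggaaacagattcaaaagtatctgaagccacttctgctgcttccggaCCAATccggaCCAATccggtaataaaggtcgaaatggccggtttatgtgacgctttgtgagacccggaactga
Tcl1, chr12:105222794-105222987, minus strand: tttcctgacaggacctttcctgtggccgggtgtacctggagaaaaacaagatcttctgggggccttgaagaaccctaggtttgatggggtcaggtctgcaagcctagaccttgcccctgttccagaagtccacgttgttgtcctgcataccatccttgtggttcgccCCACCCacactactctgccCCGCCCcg
L1td1, chr4:98726504-98726733, plus strand: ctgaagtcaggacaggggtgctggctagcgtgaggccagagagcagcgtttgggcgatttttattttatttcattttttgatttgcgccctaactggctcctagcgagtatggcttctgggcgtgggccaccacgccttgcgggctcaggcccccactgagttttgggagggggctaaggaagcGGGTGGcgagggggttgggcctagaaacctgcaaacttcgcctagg

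The window of Utf1 held 4 GC boxes and that of Tcl1 held 2, of which 3 and 1 lie in the printed stretch. A GC box was found in 32.7% of 32851 promoter windows of the same length. Triml2 held 2 CCAAT boxes (33.8% of windows have at least 1), and L1td1 and Tcl1 each held 1 KLF-type match (28.1%). An octamer-type match (TTTGCAT, 4.12% of windows), a SOX-type match (CATTGTT, 3.29%) and a TATA box (TATAAA, 12.4%) were not among the letters of any of the 4. The number of CpG dinucleotides in the 250 bases was 14 for Utf1, 11 for L1td1, 8 for Triml2 and 7 for Tcl1, each above the median of 6 over all windows. A match here is a description of the letters and not a bound site.

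The genes next to the 10 on their chromosomes were examined because position played no part in choosing them. Within 3 places on either side lay 54 other genes of the table, of which 47 were tested, 19 called lower and 14 higher (median log2 fold change -0.32). Places count only genes of the table, and the gaps ran from 0 to 3990 kb. Of the 18 directly adjacent genes 16 were tested, 10 called lower and 1 higher, with a median of -2.52. These shares stand beside the 38.3% and 35.2% of all genes tested. Several adjacent genes are themselves germline or early embryo genes.

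**Figure D4:**
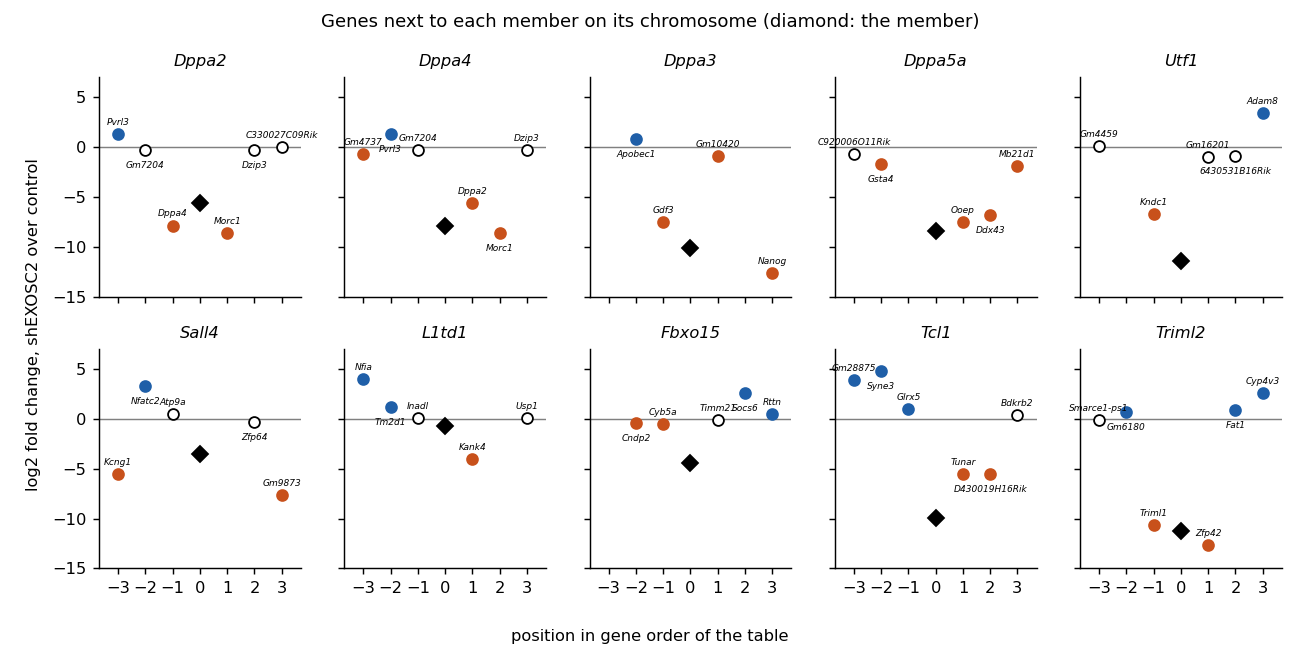
Log2 fold change, shEXOSC2 over control, of the tested genes within 3 places of each gene in chromosome order (diamond at 0, the gene itself). Orange points were called lower, blue points higher and open points neither. Both tested genes adjacent to Dppa3 and to Triml2 were called lower. The same holds for Dppa2, where one of them is Dppa4, itself a chosen gene. Each panel except that of Dppa5a has at least 1 gene called higher.

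Beyond Dppa2 on chromosome 16 lies Morc1, a gene of the germline ATPases, which fell from 1814 ± 629 to 4.34 ± 3.10 scaled counts (log2 fold change -8.57 ± 0.52). The next genes outward, Gm7204 and Dzip3, were not called, and Pvrl3, 1785 kb from Dppa4, rose from 1301 ± 151 to 3142 ± 185. On chromosome 8 the falls ran across 3 adjacent genes. Triml2 lies between Triml1 (1592 ± 405 to 0, at least 540.5-fold lower) and Zfp42, the ESC marker Rex1 (6281 ± 927 to 0, at least 2133-fold lower). Around these 3, Fat1, Cyp4v3 and Gm6180 rose by 0.90, 2.60 and 0.71 on the log2 scale, and Smarce1-ps1 was not called (log2 fold change -0.15). In that order they lie 1742, 2111, 933 and 1522 kb from Triml2.

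Dppa3 is next to Gdf3, a TGF-beta ligand of ESCs, which fell from 1309 ± 312 to 6.496 ± 3.43 scaled counts, and to Gm10420, which fell from 16.5 ± 1.65 to 8.74 ± 2.05. Nanog lies 3 places away, and Apobec1 rose by 0.77 on the log2 scale. Dppa5a is 7.93 kb from Ooep, an oocyte KH-domain gene that fell from 1178 ± 133 to 6.17 ± 3.62. Its other adjacent gene, Gsta1, was below the level tested. Tcl1 lies between Glrx5 (174 kb away) and Tunar (111 kb away). Glrx5 rose by 0.98 on the log2 scale. Tunar, a long non-coding RNA gene of ESCs, went from 45.8 ± 10.9 to 0. Syne3 and Gm28875, further out, rose by 4.82 and 3.86.

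Utf1, L1td1 and Fbxo15 each had 1 adjacent gene called lower, and Sall4 had 0. Utf1 lies 2.25 kb from Kndc1, which fell from 205 ± 16.3 to 1.27 scaled counts (4 reads), and on its other side Gm16201 was not called (log2 fold change -0.98). Adam8, 3 places away, rose by 3.41. L1td1 lies between Inadl, not called at 570.3 ± 142 and 581 ± 80.3, and Kank4, which fell from 227 ± 10.1 to 12.8 ± 0.70. Nfia and Tm2d1, beyond Inadl, rose by 3.92 and 1.14. Sall4 lies between Atp9a, not called (log2 fold change 0.49), and the overlapping Gm14261, below the level tested, while Nfatc2 rose by 3.31. Timm21 lies inside the interval of Fbxo15, and Cyb5a, which precedes Fbxo15, fell by 0.54 on the log2 scale. Socs6 and Rttn, beyond Timm21 and 3684 and 3990 kb from Fbxo15, rose by 2.55 and 0.48.

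Genes related to the 10 were followed through 11 lists. Several genes are shared between lists. The lists were counted in the same fit, and the values stand beside the 38.3% of tested genes called lower, the 35.2% called higher and the overall median of -0.07. Of 35 other ESC-associated transcripts 33 fell and 1 rose (Cd9, 6357 ± 295 to 11274 ± 443 scaled counts), with a median log2 fold change of -7.01. Zfp296 did not pass. Tdgf1, a co-receptor for Nodal, fell from 24959 ± 1913 to 1.94 ± 0.89, and Esrrb, an orphan nuclear receptor, from 16546 ± 736 to 2.27 ± 0.43. Of 24 transcription factors of the pluripotency network 18 fell and 4 rose (median -3.86). Nanog fell from 9698 ± 366 to 0.67 ± 0.58. The 4 that rose were Pou5f1, Klf4 (2415 ± 82.0 to 14169 ± 2032), Stat3 and Rarg, with log2 fold changes of 2.14, 2.54, 0.96 and 1.51.

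**Figure D5:**
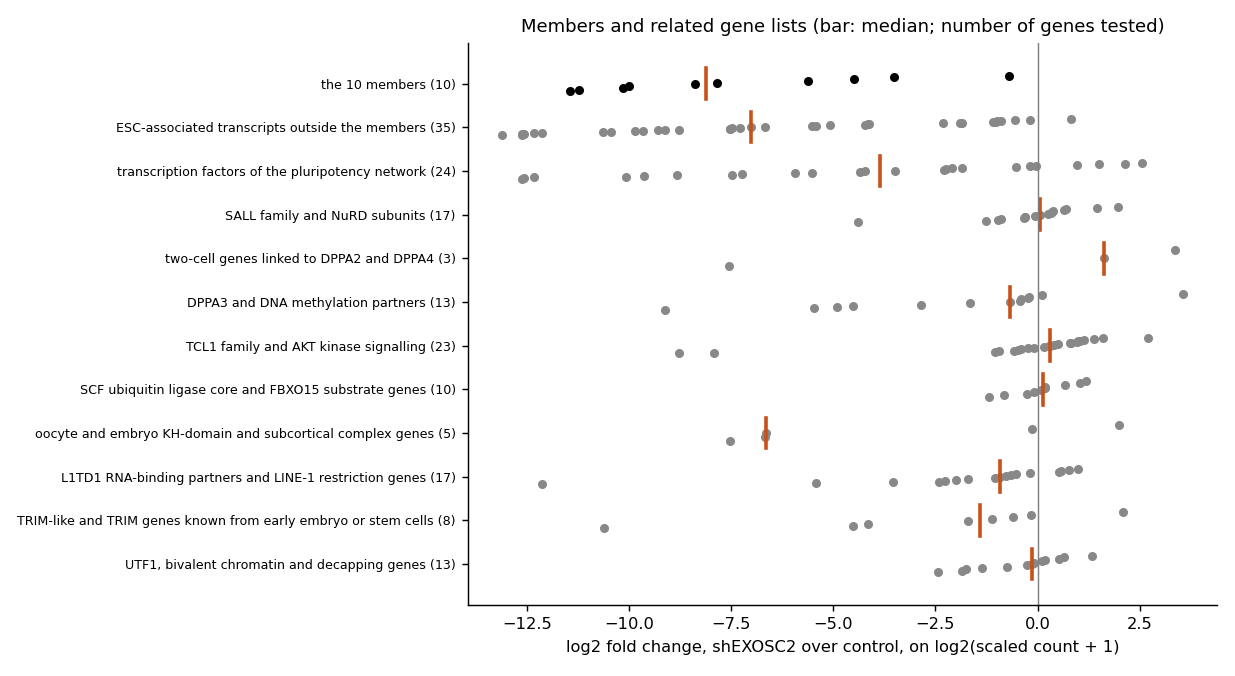
Log2 fold change, shEXOSC2 over control, of the 10 genes (black) and of the tested genes of each related list (grey), with the median as an orange bar and the number of genes tested in brackets. The lowest list medians are those of the ESC transcripts (-7.01), the oocyte KH-domain list (-6.64) and the pluripotency factors (-3.86). The medians of the SALL and NuRD, AKT, SCF and UTF1 lists lie near 0.

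Genes linked to DPPA2 and DPPA4, DPPA3 and SALL4 did not move as a block. Of 23 two-cell genes listed as linked to DPPA2 and DPPA4, only 3 were in the table. Mael fell from 187 ± 23.4 scaled counts to 0, and Sp110 and Zfp750 rose (log2 fold changes 3.37 and 1.61). Of 13 genes of DNA methylation around DPPA3, 9 fell and 1 rose (median -0.68). The de novo methylation genes Dnmt3b (2997 ± 770.1 to 65.3 ± 5.48) and Dnmt3l (2404 ± 577 to 3.28 ± 0.63) fell, as did the demethylation enzyme Tet1 (9590 ± 1670 to 316 ± 35.4). Tet3 rose by 3.57 on the log2 scale. Uhrf1, whose protein DPPA3 binds, was not called (8687 ± 1220 and 9298 ± 513). Of 17 SALL family and NuRD repressor genes 5 fell and 6 rose (median 0.07). Sall1 and Sall3 had log2 fold changes of -0.90 and -4.38, and Sall2 was not called. Chd3 and Mbd2 rose by 1.96 and 1.45, and the histone-binding subunit gene Rbbp4 fell by 1.26 on the log2 scale.

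Lists around TCL1, FBXO15, L1TD1, TRIML2 and UTF1 were mixed. Of 23 genes of the TCL1 family and AKT signalling 5 fell and 11 rose (median 0.30). Akt1 rose from 1303 ± 253 to 8458 ± 1176 scaled counts. Eras, an ESC Ras protein, went from 441 ± 102 to 0, and the phosphatase gene Inpp5d from 1974 ± 353 to 10.1 ± 9.95. Of 10 SCF core and FBXO15 substrate genes 2 fell and 3 rose, and the sign of their median depends on the setting. Nedd8 fell by 1.20, and Kif1bp and Abcb1b rose by 1.05 and 1.19 on the log2 scale. Of 5 tested oocyte KH-domain and subcortical complex genes 3 fell (Khdc3, Ooep and Nlrp4f) and Zbed3 rose. Khdc3 went from 136 ± 54.2 to 0.34 ± 0.59, from 1 read, and Nlrp4f from 248 ± 40.5 to 1.597 ± 1.01.

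Of 17 RNA-binding partners of L1TD1 and LINE-1 restriction genes 12 fell and 4 rose (median -0.91). Lin28a, an RNA-binding protein gene of pluripotent cells, fell from 6999 ± 1035 to 0.92 ± 1.598 scaled counts. Igf2bp1 and Igf2bp3 fell by 2.40 and 3.55 on the log2 scale, each by more than L1td1 itself. Of 8 TRIM and TRIM-like genes 6 fell and 1 rose, Trim8, by 2.09 (median -1.42). Trim71 and Trim6 fell by 4.16 and 4.52. Of 13 genes around UTF1 (bivalent chromatin and mRNA decapping) 5 fell and 3 rose (median -0.13). The Polycomb genes Mtf2, Ezh2 and Jarid2 fell by 2.44, 1.86 and 1.76 on the log2 scale. Cdkn2a, at the Arf locus known as a UTF1 target, rose from 248 ± 77.6 to 611 ± 131, and the decapping gene Dcp1a from 2182 ± 193 to 3161 ± 251.

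Genes with profiles most like each of the 10 were taken by the root-mean-square difference in log2(scaled count + 1), relative to the control mean, over the 6 libraries. For L1td1 these were Pdgfc (0.055) and Macrod2 (0.076), for Sall4 Rbpms (0.12) and Cpne5 (0.12), and for Fbxo15 Srl (0.12) and Blnk (0.13). For Dppa3 they were Dmrt1 (0.16) and Rps6ka6 (0.17), for Tcl1 Kcnk1 (0.13) and Dmrt1 (0.23), and for Triml2 Platr10 (0.30) and Gldc (0.36). For Dppa5a they were 2610528J11Rik (0.15) and Mageb16 (0.16), for Dppa4 Nefh (0.21) and 2410141K09Rik (0.26), and for Dppa2 Lhx6 (0.21) and Ksr2 (0.24). Utf1, with its high value in control 2, had the most distant matches, Bex1 (0.46) and Platr10 (0.55). None of these lies on the chromosome of the gene it resembles. In sets with no reads or few reads in the clones, the likeness of a profile follows in part from the control level and the added 1. The falls in scaled counts can then differ. Nefh, with 1 clone read, fell 970-fold, against 225-fold for Dppa4, and 2410141K09Rik also had 1. 2610528J11Rik and Mageb16 had no clone read, against 117 for Dppa5a. Lhx6 and Ksr2 had 2 and 1, against 52 for Dppa2.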

How the data were processed

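Poly(A) RNA libraries were made with a stranded TruSeq kit, per the labels' protocols. Per the submitters' processing notes the tools were STAR 2.5.0a, cutadapt 1.6, DESeq 1.22.1 and HTSeq 0.5.3, with the build mm10. The deposited values are a signal that the authors made by scaling read counts with DESeq, per the file headers and those notes. Dividing each library by its smallest step gave whole numbers (tolerance 0.001 read), and these were taken as reads. For strand use in counting, nothing was given in the sources used here.

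Groups came from the sample titles. Values were tested as log2(value + 1) with limma 3.58.1, using lmFit and a trended eBayes, where the mean reached 10, with Benjamini-Hochberg adjustment over 15179 genes and a threshold of 0.05. Fold changes on this scale understate the change of low genes. For genes without reads the fold is a bound against 3 reads per library. Positions and exon lengths came from GENCODE M21 (GRCm38, the assembly of mm10), which matched 17860 of 17912 genes.

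The genes described, the lists and the rule for named genes were chosen with earlier results of these data known. The rule took the 10 genes, Exosc2, the 3 genes of each list with the smallest p, the adjacent genes and those called in the opposite direction within 3 places, and the 2 most similar profiles with a control mean of at least 50. Other genes named, among them the Sall genes, those that went against their list, Uhrf1, Dcp1a, Cdkn2a, Epcam, Krt18, Grhl2, Smarce1-ps1, Plac1, Hand1, Lum and Dcn, were chosen after their values were seen. The fit was repeated leaving out each library, with chromosome centring (the median change of each chromosome subtracted), with TMM scaling, with an untrended eBayes, with pseudocounts of 0.5 or 5, and with the filter removed or raised to 50. The recovered reads were also tested with DESeq2 1.42.0 and edgeR 4.0.16. R 4.3.3 and Python 3.11.15 were used.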

Additional observations from a re-analysis of the deposited data

How the results depend on the processing

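All 10 genes kept their direction under all 15 alternatives, and all 10 calls were kept except that of L1td1 with chromosome centring (log2 fold change -0.41), where 9 were called. The median of the SCF list changed sign with chromosome centring (-0.10) and, among fits that left out 1 library, ran from -0.017 without control replicate 2 to 0.19 without control replicate 1. The two-cell list had a median of -2.97 where a mean of at least 50 was required, which left fewer genes and 1 called higher in place of 2. The SALL and NuRD list had 3 genes called higher in place of 6 with eBayes without trend and without clone 6 or clone 7. The oocyte KH-domain list had 5 genes called lower in place of 3 without the filter. Over all genes, edgeR called 5960 lower and 5190 higher and DESeq2 5910 and 5222. Depth limits the 4 genes without reads to the bounds given. No paired analysis was possible because controls are numbered 1 to 3 and clones 5 to 7.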
